A study of Mus musculus with 4 samples.

Results

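The transcripts of 6 genes of cholesterol biosynthesis were followed on 4 microarrays of C2C12 cells, a mouse myoblast line that fuses into myotubes in culture. They are Insig1, a brake on sterol synthesis, and 5 enzymes of the route itself, namely Hmgcs1, Idi1, Sqle, Lss and Cyp51. The Bex group (2 arrays) comes from confluent cells held for 48 h in basal adipogenesis medium with 10 µM of the agent labelled Bex, and the Ctrl group (2 arrays) from cells held for the same time in that medium alone. The labels do not spell out Bex; the study is known to have used bexarotene, which activates retinoid X receptors. The labels mention 2 batches of cells but not which array belongs to which, so the spread between arrays of a group may be technical. Each of the 6 symbols matched exactly 1 transcript cluster, a set of probes summarised as 1 value, and these 6 stand among 559 clusters of the authors' deposited table and 35557 of the value table. The members were chosen by their measured difference between Bex and Ctrl, since that table lists only clusters that differed by at least 1.5-fold with a p-value under 0.05 in the authors' own test. Their differences are therefore a description without a test.

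Cholesterol is built from acetyl-CoA through mevalonate and isoprenoid units, which are joined into squalene, closed to the ring compound lanosterol and trimmed to cholesterol. The genes of this route are switched on together by SREBP transcription factors, above all SREBP-2, which leave the endoplasmic reticulum when its membranes are poor in sterol. Insig1 holds the SREBP escort protein Scap in that membrane when sterols are plentiful, and its own gene is an SREBP target. Retinoid X receptors pair with liver X receptors, which respond to oxysterols, and with PPARs and retinoic acid receptors.

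The bases before the annotated start of the genes are shown because SREBPs act at promoters. RefSeq windows of build GRCm38.p6 were on hand for 5 of the 6 genes, Insig1, Hmgcs1, Idi1, Lss and Cyp51. The 150 bases before the start are given 5′ to 3′ on the strand of the gene. Capitals mark TCACNCCAC (a form of the sterol regulatory element), TCACCNCA (a looser form of it), CACGTG (an E-box), CCAAT (the box bound by NF-Y) and AGGTCA (the half-site of many nuclear receptors), on either strand, so that CCAAT on the opposite strand reads ATTGG.
Insig1, chr5:28071262-28071411, plus strand: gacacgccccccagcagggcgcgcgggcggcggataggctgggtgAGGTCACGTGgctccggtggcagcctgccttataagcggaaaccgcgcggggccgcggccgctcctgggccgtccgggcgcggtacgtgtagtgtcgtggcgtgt
Hmgcs1, chr13:119690201-119690350, plus strand: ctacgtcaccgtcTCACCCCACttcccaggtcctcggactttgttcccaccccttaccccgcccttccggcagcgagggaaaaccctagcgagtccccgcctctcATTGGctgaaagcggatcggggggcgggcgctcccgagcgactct
Idi1, chr13:8885456-8885605, plus strand: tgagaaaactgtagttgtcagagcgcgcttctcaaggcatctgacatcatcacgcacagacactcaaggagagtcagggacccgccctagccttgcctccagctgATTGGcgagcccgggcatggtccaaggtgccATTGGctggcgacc
Lss, chr10:76531455-76531604, plus strand: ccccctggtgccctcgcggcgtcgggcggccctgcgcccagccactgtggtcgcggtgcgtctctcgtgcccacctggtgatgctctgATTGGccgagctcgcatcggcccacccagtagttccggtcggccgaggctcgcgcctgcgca
Cyp51, chr5:4104698-4104847, minus strand: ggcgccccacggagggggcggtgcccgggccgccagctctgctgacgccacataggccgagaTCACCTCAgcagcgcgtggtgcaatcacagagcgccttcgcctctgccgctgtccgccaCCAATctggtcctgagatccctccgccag

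Over the full 250 bases before the start, TCACNCCAC occurred in Hmgcs1 alone of the 5 genes, with its first base at -137, and in 1.05% of the 32851 RefSeq windows. The looser TCACCNCA, whose letters were chosen after the windows had been read, occurred at the same place in Hmgcs1, where it overlaps the stricter motif, and at -88 in Cyp51, against 3.61% of all windows. Insig1 held an E-box at -101 that overlaps an AGGTCA half-site at -105. E-boxes were found in 6.02% of all windows and single half-sites in 14.02%. Hmgcs1 had the other half-site, at -246. None of the 5 genes searched held AGGTCA as a direct repeat spaced by 1 or 4 bases. These arrangements were found in 0.0335% and 0.0152% of all windows.

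CCAAT was present in all 5 windows and in 33.8% of all RefSeq windows. Hmgcs1 held it at -237, -176 and -45, Idi1 at -45 and -14, Lss at -62, Cyp51 at -29 and Insig1 at -216. GGGCGG, the box of Sp1, was likewise present in all 5 windows and in 32.7% of all windows. The printed stretches were 58.7% to 74.0% G and C, against a median of 54.0% over the same stretch of all windows. A match is a run of letters and was not tested as a binding site here.

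**Figure D1:**
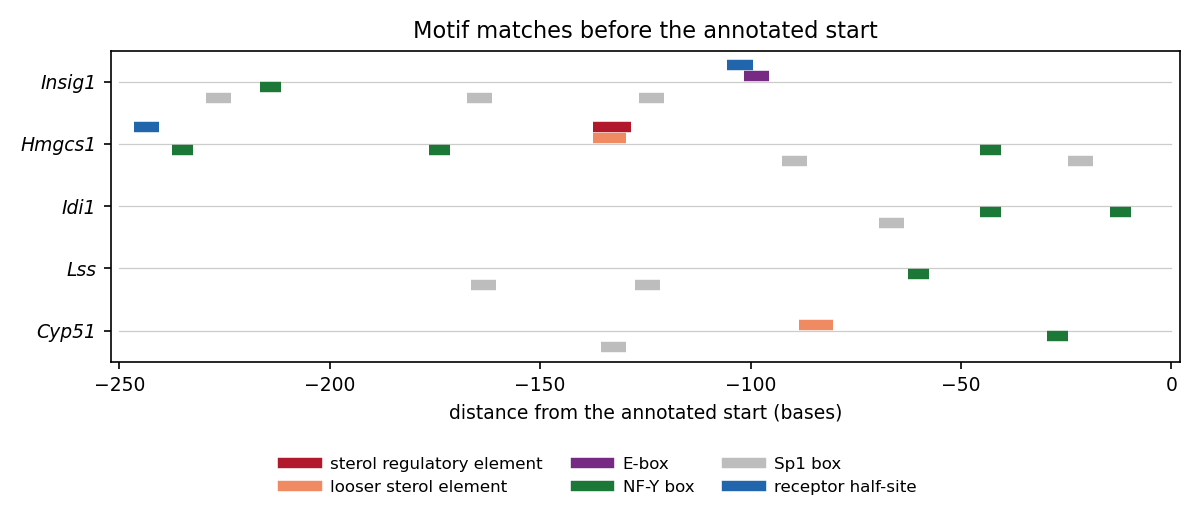
Matches to 6 motifs, on either strand, in the 250 bases before the annotated start of 5 genes, with the distance from the start in bases on the x axis and 1 row per gene. The NF-Y box is present in all 5 rows, the stricter sterol element only in Hmgcs1 and the E-box only in Insig1.

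Insig1, which retains the SREBP escort protein, read 12.13 and 11.88 (log2) on the Bex arrays, against 9.15 and 9.27 on the Ctrl arrays. Both Bex arrays lay above both Ctrl arrays, and the lower Bex array exceeded the higher Ctrl array by 2.61. The SD was 0.18 among the Bex arrays and 0.079 among the Ctrl arrays (n = 2 each). The difference of means was 2.79 ± 0.13 (log2; SE of limma's fit, n = 2 per group here and below), or 6.93-fold. Only 7 of the 35557 clusters had a more positive difference than Insig1. The Bex arrays stood 0.25 apart and the Ctrl arrays 0.11. Choosing members by p-value favours a small spread beside the difference, so nothing is read from it, here or below.

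Hmgcs1 encodes the cytosolic synthase that forms HMG-CoA, an early intermediate on the way to mevalonate. It read 10.08 and 9.97 on the Bex arrays and 8.71 and 8.73 on the Ctrl arrays. The groups did not overlap, and the Ctrl arrays differed by 0.021. The difference was 1.31 ± 0.09 (SE), or 2.47-fold.

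Idi1 is the isomerase that turns isopentenyl diphosphate into dimethylallyl diphosphate, the starter unit of isoprenoid chains. Its Bex arrays read 9.54 and 9.56, against 7.82 and 7.47 on the Ctrl arrays. The groups did not overlap, but here the Ctrl arrays stood 0.35 apart, the widest gap between arrays of 1 group among the 6 genes. The difference was 1.91 ± 0.15 (SE), or 3.75-fold, the highest of the 5 enzymes.

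A second cluster of the authors' deposited table carries both Idi1 and Gm13502, which the RefSeq table lists as a pseudogene, and was not counted as a member. It read 9.91 and 9.90 on the Bex arrays and 8.19 and 7.93 on the Ctrl arrays. Its difference of 1.84 ± 0.12 (SE), or 3.58-fold, lay close to that of the Idi1 cluster, and again Ctrl replicate 1 was above Ctrl replicate 2. The sources do not say how many probes both clusters share, so how far each value belongs to Idi1 alone is uncertain.

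Sqle, the epoxidase that commits squalene to the sterol branch, had the smallest difference of the 6. It read 10.32 and 10.24 on the Bex arrays, against 9.60 and 9.65 on the Ctrl arrays. The groups did not overlap, with 0.59 between the lower Bex and the higher Ctrl array. The difference was 0.66 ± 0.08 (SE), or 1.58-fold, and the authors' deposited table gives 1.57-fold, near its limit of 1.5. Clusters under that limit carry no gene symbol in the sources used here, so no sterol gene just outside it can be given.

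Lss closes the epoxide of squalene into lanosterol. Its values were 8.29 and 8.13 on the Bex arrays and 6.65 and 6.62 on the Ctrl arrays. The lower Bex array exceeded the higher Ctrl array by 1.47, and the difference of means was 1.57 ± 0.10 (SE), or 2.97-fold.

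Cyp51, the cytochrome P450 that removes a methyl group from lanosterol, read 9.99 and 10.04 on the Bex arrays and 8.72 and 8.69 on the Ctrl arrays. The groups did not overlap, with arrays 0.059 apart for Bex and 0.033 apart for Ctrl. Its difference of 1.31 ± 0.08 (SE), or 2.47-fold, was the same as that of Hmgcs1 at this precision.

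**Figure D2:**
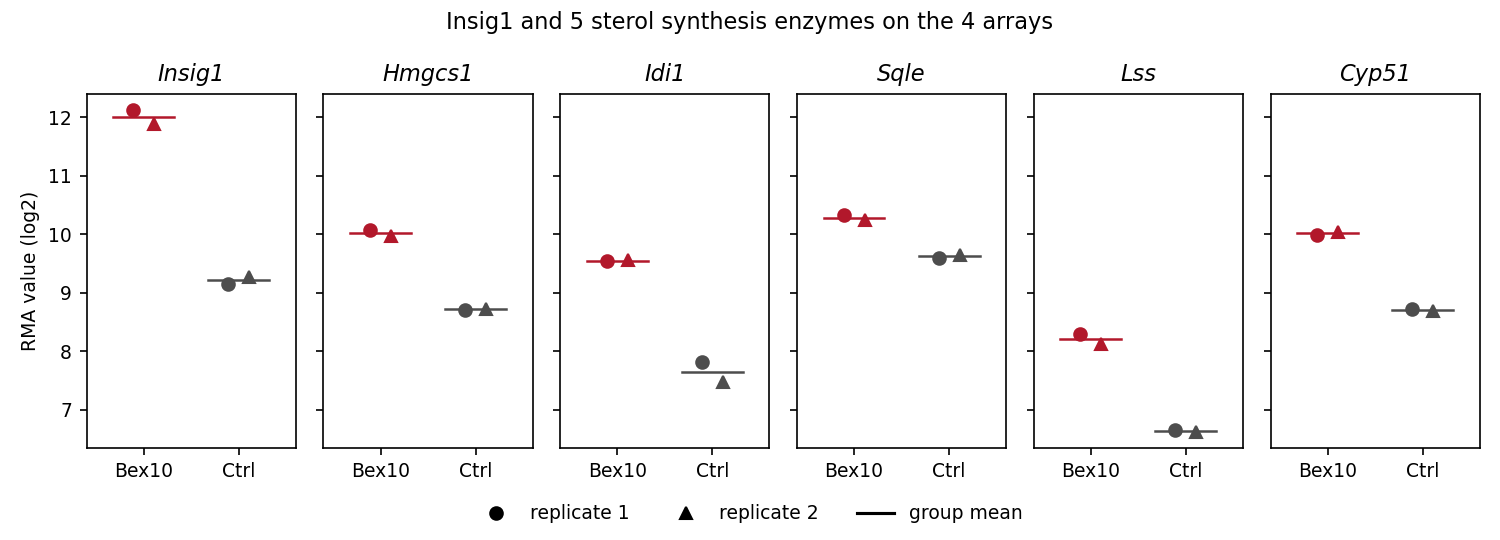
RMA values (log2, y axis) of the 6 genes on each array, with Bex (Bex10) left of Ctrl; circles are replicate 1, triangles replicate 2 and bars the means of 2 arrays. In every panel both Bex points lie above both Ctrl points, with the widest step for Insig1 (2.79) and the narrowest for Sqle (0.66). The same holds for 20.6% of all clusters. It also holds for all 336 higher genes that the authors' deposited table names singly, so nothing is read from it. Heights are not comparable between panels, since each gene has its own probes.

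By size of difference the order was Insig1, Idi1, Lss, Cyp51, Hmgcs1 and Sqle. Taking each Bex array against each Ctrl array, the 4 differences of Insig1 ran from 2.61 to 2.97 and those of Idi1 from 1.72 to 2.09. Lss followed with 1.47 to 1.67, Cyp51 with 1.26 to 1.35, Hmgcs1 with 1.24 to 1.37 and Sqle with 0.59 to 0.73. These ranges overlapped for Cyp51 and Hmgcs1, whose order is thus not settled, and for no other neighbours. The 4 differences of a gene come from only 2 arrays a group, so ranges that do not overlap do not settle an order either. Idi1 and Lss came closest otherwise, 0.054 apart at their nearest. Insig1 exceeded the next gene, Idi1, by 0.89 on the log2 scale, and Hmgcs1 exceeded Sqle by 0.65.

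Neither array of a group was the higher one for all 6 genes. Bex replicate 1 was above Bex replicate 2 for 4 genes, Insig1, Hmgcs1, Sqle and Lss, and below it for Idi1 and Cyp51. Ctrl replicate 1 was above Ctrl replicate 2 for 3 genes, Idi1, Lss and Cyp51. All 4 arrays had similar medians over all clusters, 5.77 and 5.76 (log2) for Bex and 5.78 and 5.80 for Ctrl.

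Under limma's test over all clusters, 0 of 35557 were called higher at an adjusted p of 0.05 (0%), and so were 0 of the 6 members. The lowest adjusted p of any cluster was 0.0682, and 4189 clusters had an unadjusted p under 0.05. With limma's prior variance allowed to follow the level, 271 clusters, or 0.762%, were called higher, and all 6 members were among them. That count of 6 fell to 1 (Insig1) without either Bex array and to 0 without either Ctrl array, where the spread came from 1 group alone. It was 5 with the replicate number as a block, where Sqle was lost. At 1.5-fold or more with no test, 1288 clusters, or 3.62%, were higher, again with all 6 members. Both Bex arrays exceeded both Ctrl arrays in 20.6% of all clusters and in all 6 members. The members were selected on this same contrast, so nothing is read from these counts.

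**Figure D3:**
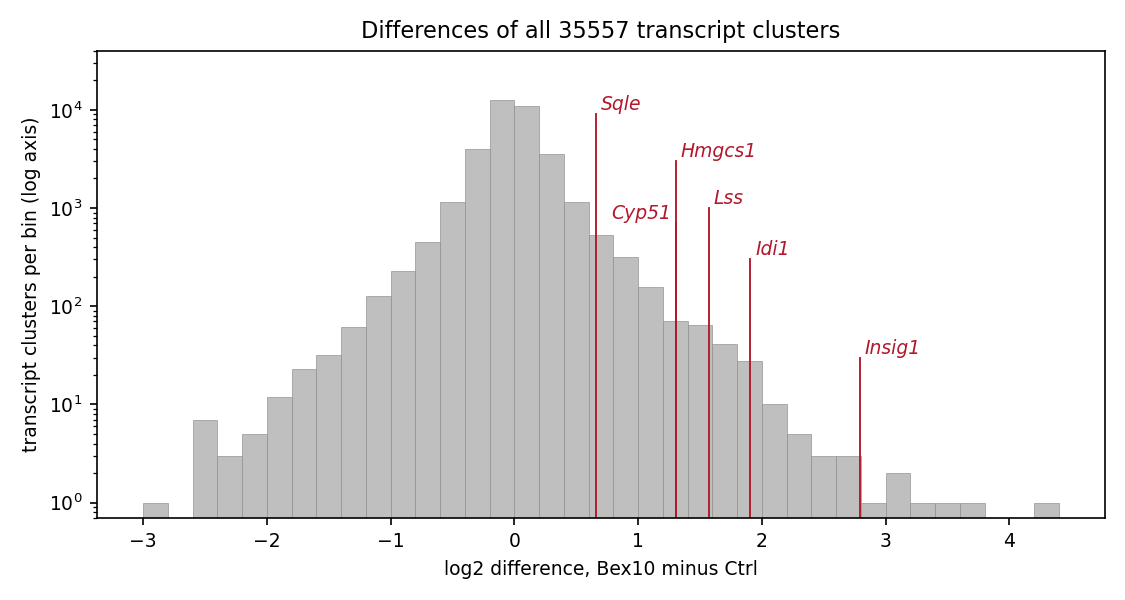
Number of transcript clusters (y axis, log scale) by log2 difference, Bex minus Ctrl (x axis, bins of 0.2), over all 35557 clusters, with the 6 genes as red lines. Sqle (0.66) lies on the shoulder, Cyp51 and Hmgcs1 share a line at 1.31, and Insig1 (2.79) lies far to the right.

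The other genes of the route were read from lists of 57 sterol genes, of which 20 encode synthesis enzymes and the others act in control, transport and related branches. Of the 20 enzymes 15 were named by the authors' deposited table, all 15 higher with Bex, and 12 passed under the level-dependent prior against 0 under the main test. Being named already requires a difference on these arrays: 62.7% of all 536 singly named genes of that table were higher, and 57.7% of those 336 higher genes passed under the same prior. Over all lists 14 of 18 named genes passed under that prior, but only 1 (Insig1) without either Bex array, 0 without either Ctrl array and 9 with the replicate block. The median difference of the 15 enzymes was 1.05, beside 0.88 over the 336 higher named genes, and nothing is read from that gap. Only clusters past the authors' limits carry a name, so the direction of unnamed enzymes such as Mvk, Fdft1, Lbr and Tm7sf2 was not analysed here. The 5 member enzymes had a median of 1.31 and the 10 other named enzymes one of 0.95, a gap that the choice of members favours.

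In the mevalonate arm 6 of 7 listed genes were named and all were higher, with 4 passing under the level-dependent prior, a share to be read beside the 57.7% of all higher named genes. Fdps, which joins isoprenoid units into farnesyl diphosphate, was higher by 0.94 ± 0.08, and Acat2, a thiolase at the entry to the route, by 1.05 ± 0.12. Acat2 no longer passed once the replicate block was added. Pmvk (0.95 ± 0.13) and Mvd (0.77 ± 0.13), which phosphorylate and decarboxylate mevalonate intermediates, did not pass.

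Between lanosterol and cholesterol 7 of 10 listed genes were named, all higher, and 6 passed under that prior, beside 57.7% of all higher named genes. With the replicate block added, Hsd17b7, Sc5d and Dhcr7 no longer passed. Sc4mol, the methyl sterol oxidase that acts after Cyp51, was higher by 1.13 ± 0.10, and Dhcr7, the reductase of the last step by one route, by 1.12 ± 0.15. Nsdhl (1.05 ± 0.10), Hsd17b7 (0.85 ± 0.10) and Sc5d (0.85 ± 0.08) were higher by less. Ebp, a sterol isomerase, was higher by 0.74 ± 0.11 and did not pass.

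Beside Insig1, the list of 10 SREBP regulators had 1 named gene, Srebf1, which encodes SREBP-1 and is also a known target of liver X receptors. It read 9.04 and 8.84 with Bex and 8.13 and 8.29 in Ctrl, and its difference of 0.74 ± 0.12 (SE) did not pass under the level-dependent prior. Apoe, a lipoprotein component and a target of liver X receptors, was the only named gene of 9 listed for sterol efflux and these receptors. It was higher by 1.18 ± 0.10 and passed. Others on that list, such as Abca1, Abcg1 and Mylip, were not named, so their direction was not analysed here. None of the 9 genes of other isoprenoid branches was named.

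**Figure D4:**
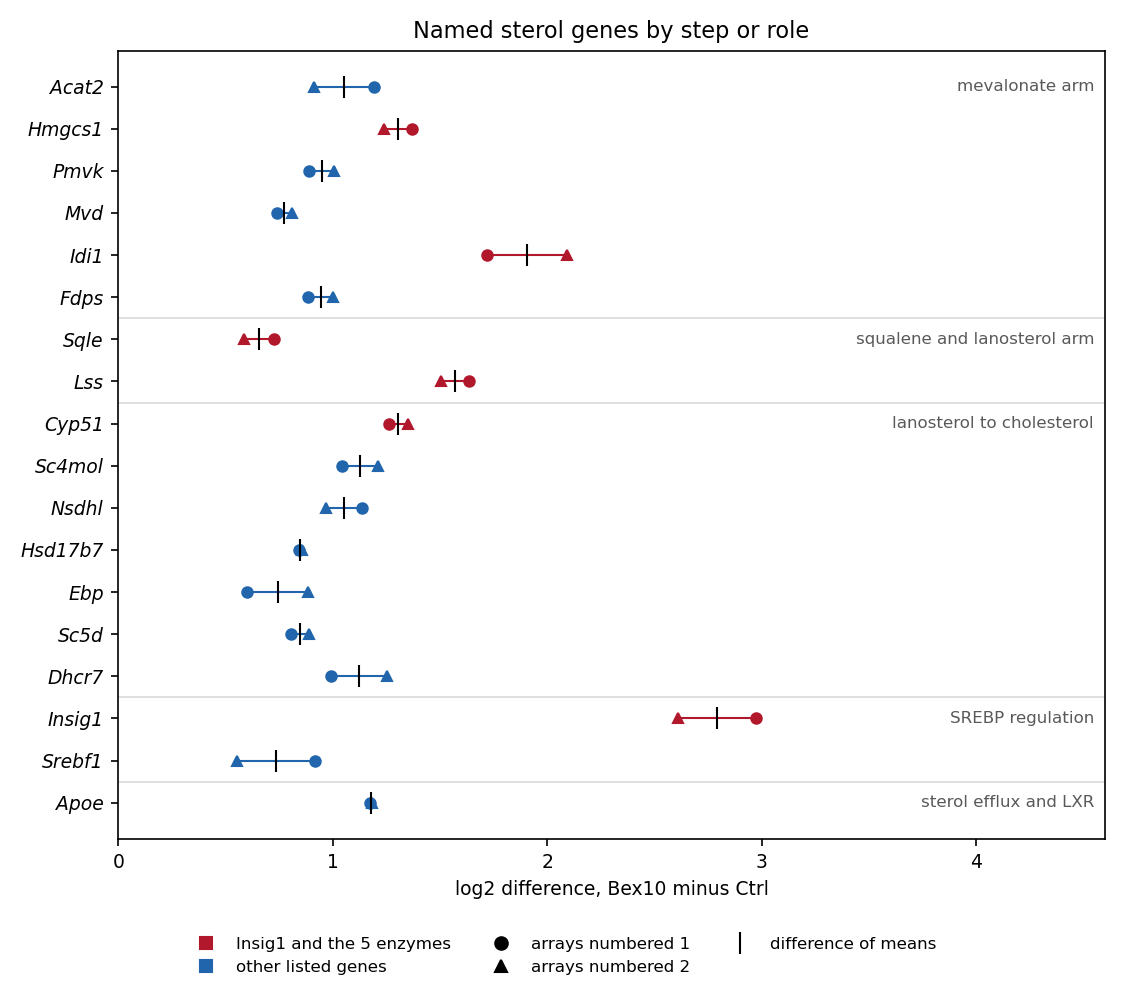
Log2 difference, Bex minus Ctrl (x axis), of the 18 named sterol genes, listed down the page by step or role; circles and triangles are the differences of arrays numbered 1 and 2, and black ticks the differences of means. Red marks Insig1 and the 5 enzymes, blue the other genes; all points lie above 0, and the ticks run from Sqle at 0.66 to Insig1 at 2.79.

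Likeness of pattern was measured as the Euclidean distance over the 4 arrays between values set against the mean of the Ctrl arrays, among 530 other singly named genes. Nearest to Insig1 were Tpsab1, a mast cell tryptase, at 0.256, Mgll, a monoacylglycerol lipase, at 0.411, and Dgat2, a triglyceride synthesis enzyme, at 0.462. Nearest to the mean of the 5 enzymes were Alcam, a cell adhesion molecule, at 0.0816, Itgb1bp2, a muscle protein that binds integrin, at 0.0829, and Pgam2, the muscle phosphoglycerate mutase, at 0.109. With 4 arrays in 2 groups this measure mostly finds genes of equal difference, and Alcam, at 1.32 ± 0.08 (SE), is such a case.

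Markers of muscle, fat and fibroblast cells were named in part, and 0 of them passed the main test. Of 10 myoblast and myotube markers 4 were named. Under the level-dependent prior Myh8 (log2 difference 2.06) and Pax7 (-0.60) passed, and Myh3 (0.96) and Ckm (0.72) did not. Ckm had 2 singly named clusters, and only the one with the higher mean is given. Myod1, Myf5 and Des were not analysed here. Differences between groups do not check the label C2C12, which was taken as given. Of 6 adipocyte markers Fabp4, Plin1 and Pparg were named, and all 3 passed under that prior, which 56.2% of all named genes did. They read between 7.69 and 9.63 on the Bex arrays and between 6.17 and 7.84 on the Ctrl arrays. Of 3 fibroblast markers Dcn was named, with a log2 difference of -0.78, and did not pass. The part of such a shift in the sterol values was not tested, and in RNA from whole cultures more cells of a type and more RNA per cell cannot be told apart.

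The authors' deposited table gives its own values for the 6 genes. Its folds were 6.76 for Insig1, 3.42 for Idi1, 3.11 for Lss, 2.61 for Hmgcs1, 2.54 for Cyp51 and 1.57 for Sqle, all higher with Bex. Unadjusted p-values of the 6 in that table ran from 0.000468 for Lss to 0.008123 for Idi1. Its FDR p-values ran from 0.253 for Lss to 0.341 for Idi1, so none of the 6 lay under 0.05 after adjustment in the authors' deposited table either. Idi1, the gene with the widest gap between its Ctrl arrays, also has the highest p-value of the 6 there, and a link between these was not tested.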

How the data were processed

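RNA of 4 C2C12 samples was amplified, biotin-labelled and run on Affymetrix Mouse Gene 1.0 ST arrays. Per the labels, the authors made log2 values by RMA over core exons in Affymetrix Expression Console. RMA evens out overall level between arrays, which hides any change common to most transcripts. The authors' deposited table, from Transcriptome Analysis Console, holds log2 averages, a signed fold change (a score, negative where Ctrl is higher), and p-values before (ANOVA) and after FDR adjustment, per the file headers. For genome build and software versions, the sources used here give none.

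Arrays were grouped by title. Any 2 arrays shared 30 to 58 identical values, so none was a copy. Bex minus Ctrl was fitted over 35557 clusters with limma 3.58.1 (lmFit, eBayes) in R 4.3.3, without covariates or filter, with Benjamini-Hochberg adjustment at 0.05, and checked on simulated arrays. Array controls are not marked in the files and stayed in. With 2 arrays a group, precision is limited by their number. Genes are named only through the authors' deposited table, and where several clusters carried 1 symbol the one with the highest mean was used. The members, lists and motifs were chosen with earlier results of these data known. The text names the 6 members, the named sterol genes (some listed genes are not reported here) and the 3 genes nearest to Insig1 and to the enzyme mean. Alternatives were a replicate block, a variance trend, a filter on the lowest 30% of clusters, other scalings and each array left out. Promoter windows came from RefSeq (GRCm38.p6) and were searched with Python 3.11.15.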

Additional observations from a re-analysis of the deposited data

How the results depend on the processing

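With 2 arrays a group, the count of clusters called, and with it the count of sterol genes called, depended on the setting. The main test called 0 clusters and 0 of the 18 named sterol genes. Both counts stayed at 0 with a replicate block, a median shift, further quantile normalization and each array left out (0 to 0). They became 427 and 14 with a variance trend, and 2292 and 18 at 1.5-fold alone. Without the 30% of clusters of lowest mean (below 4.57) they became 105, of 24890 tested, and 7. Cluster counts here take both directions. Of the 427, 2292 and 105 clusters, 271, 1288 and 82 were higher with Bex, as was every sterol gene called. Naming already required 1.5-fold in the authors' deposited table, so the 18 at 1.5-fold were nearly fixed in advance. Among settings added after the data were seen, the counts of clusters and sterol genes became 297 and 12 without 6669 clusters of low ID, which may include array controls. They became 158 and 9 with the trend and a replicate block, and 859 and 18 with the trend and the filter on dim clusters. Under the trend they were 23 and 1 without Bex replicate 1, 32 and 1 without Bex replicate 2, and 0 without either Ctrl array. Sqle was the only member not called without dim clusters, without clusters of low ID, or with the trend and block.

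Same-numbered arrays are tied in the labels only by their number. The correlation of their deviations from the group means was 0.00786 across all clusters. That value cannot tell whether they came from the same batch of cells, so whether the block is a true pairing is unknown. The 6 member differences kept their direction and moved by less than 1 SD between replicates after a median shift and after quantile normalization, which RMA had already applied. A balanced block cannot change a difference, and leaving out 1 of 2 arrays always moves a group mean by less than its SD, so these settings say nothing of stability. Without each array in turn, Insig1 ranged from 2.67 to 2.92, Idi1 from 1.73 to 2.08 and Sqle from 0.61 to 0.70. With the authors' deposited averages 4 of 6 stayed within that SD, and Hmgcs1 became 1.39 and Cyp51 1.35. No member had a second cluster of its own symbol alone, so averaging clusters could not be run.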

Other observations

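The group averages in the authors' deposited table are not the means of the deposited array values. For 5 of the 6 members, Idi1 being the exception, the Ctrl average in the authors' deposited table lies outside the values of both Ctrl arrays at 2 decimals, and for Idi1 and Cyp51 the same holds of the Bex average. Cyp51 has averages of 9.90 for Bex and 8.55 for Ctrl in the authors' deposited table, against array means of 10.01 and 8.71. Over all 559 clusters this was so for 294 Bex averages (52.6%) and 340 Ctrl averages (60.8%). The differences of both sources lay closer together, with a median gap of 0.0347 on the log2 scale, and 36 of the 559 clusters fell under 1.5-fold in the array values. How the table's averages were computed beyond the header's word bi-weight was not tested.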
